A study of Mus musculus with 8 samples.

Results

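Irs2 and 5 other genes of the insulin response in mouse liver, Irs1, Insr, Igfbp1, Igfbp2 and Foxo1, were followed through the chromatin loops that REV-ERBα (gene Nr1d1) held in 6 libraries. A loop belonged to a gene when an anchor touched its body or the 5 kb on either side. For Irs2 a window on mm10, chr8:10850000-11020000, was read as well, because it holds a dense group of anchors outside genes, called the Irs2 hub here, and it includes Irs2 itself. These are 6 of 21887 protein-coding genes, and they took 638 of 277517 listed loops. The genes and the window were picked with values of these libraries known, mainly their high counts at ZT10, so the ZT10 values and their contrast with ZT22 are given as a description.

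Insulin binds its receptor, a tyrosine kinase encoded by Insr, which phosphorylates the adaptor proteins IRS1 and IRS2. These recruit PI3-kinase, and the kinase AKT then phosphorylates the transcription factor FOXO1, which leaves the nucleus. In the fasted liver FOXO1 stays on its targets, among them Irs2, Igfbp1 and the glucose-producing enzyme genes, so that Irs2 and Igfbp1 are known as genes that insulin represses. IGFBP1 and IGFBP2 are secreted proteins that bind insulin-like growth factors. REV-ERBα is a nuclear receptor of the circadian clock that represses transcription with the NCoR-HDAC3 complex, and its protein in mouse liver is high late in the light phase and low late in the dark phase.

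In the assay, in-situ ChIA-PET, nuclei are crosslinked, cut and religated before the bound chromatin is pulled down, here with anti-HA beads. A paired-end tag (PET) joins both anchors of a loop. The livers were of REV-ERBa3HA/3HA knock-in mice at zeitgeber time (ZT) 10 and ZT22, with 1 library each, and of REV-ERBaf/f REV-ERBbf/f mice at ZT10, with 2 libraries for each of 2 injections. One injection was AAV8-TBG-Cre with AAV8-TBG-3HA-REV-ERBa-delhIDR (dhIDR), and the other AAV8-TBG-Cre with AAV8-TBG-3HA-REV-ERBa-WT (WT). Cre and both constructs were driven by the TBG promoter, which is active in hepatocytes, so other liver cells keep their floxed alleles. All 6 libraries thus pulled down a 3HA-tagged protein, and the series' 2 anti-CTCF samples were not analysed here. The labels do not say whether each library was made from its own animal, and p-values therefore cover the spread between libraries alone, which may be technical.

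Listed PETs ranged from 104161 to 320427 per library and loops from 31033 to 58102. The ZT10 knock-in library stood apart from the other 5, with a median loop span of 40.1 kb against 524 to 1071 kb. Both anchors were at least 700 bp wide in 71.5% of its loops, in 11.7% at ZT22, in 1.61% and 0.669% in dhIDR and in 5.89% and 3.49% in WT. No file lists a loop with under 3 PETs, so an unlisted loop has 0 to 2. In the knock-in libraries, 6 hepatocyte marker genes summed to 1455 PETs at ZT10 and 51 at ZT22, with 930 of the 1455 at Fgb alone. Lists of 6 marker genes each summed at ZT10 and ZT22 to 3 and 33 for Kupffer cells, 116 and 31 for endothelial cells, 26 and 76 for stellate cells, 32 and 32 for cholangiocytes, and 29 and 15 for lymphoid cells. These counts describe looped loci and not RNA, and deletion of the floxed genes cannot be read from them.

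The Irs2 hub was densely looped at ZT10. Its window held 296 loops with 2604 PETs at ZT10 (95% Poisson interval 2505 to 2706), 10 loops with 33 PETs at ZT22, 12 with 40 and 16 with 65 in dhIDR, and 7 with 23 and 9 with 33 in WT. At ZT10 that was 0.813% of all listed PETs (Wilson interval 0.782 to 0.844%), against 0.0249% at ZT22. Among 10998 windows of 170 kb tiled over the genome that held a ZT10 PET, the median held 9. The highest, which overlaps the hub, held 2569, and none held more than the hub. The hub window was picked mainly for its high ZT10 counts, so this rank is a description and not a test. The adjoining 170 kb below held 13 PETs at ZT10, and the adjoining 170 kb above 643, of which 444 were in loops that also touched the hub. At the lower border of the window 299 PETs lay in the 10 kb inside and 0 in the 10 kb outside, but the window was picked with values of this library known. At the upper border 288 PETs lay in the 10 kb inside and 89 in the 10 kb outside, 35 of them in loops that did not touch the hub.

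**Figure D1:**
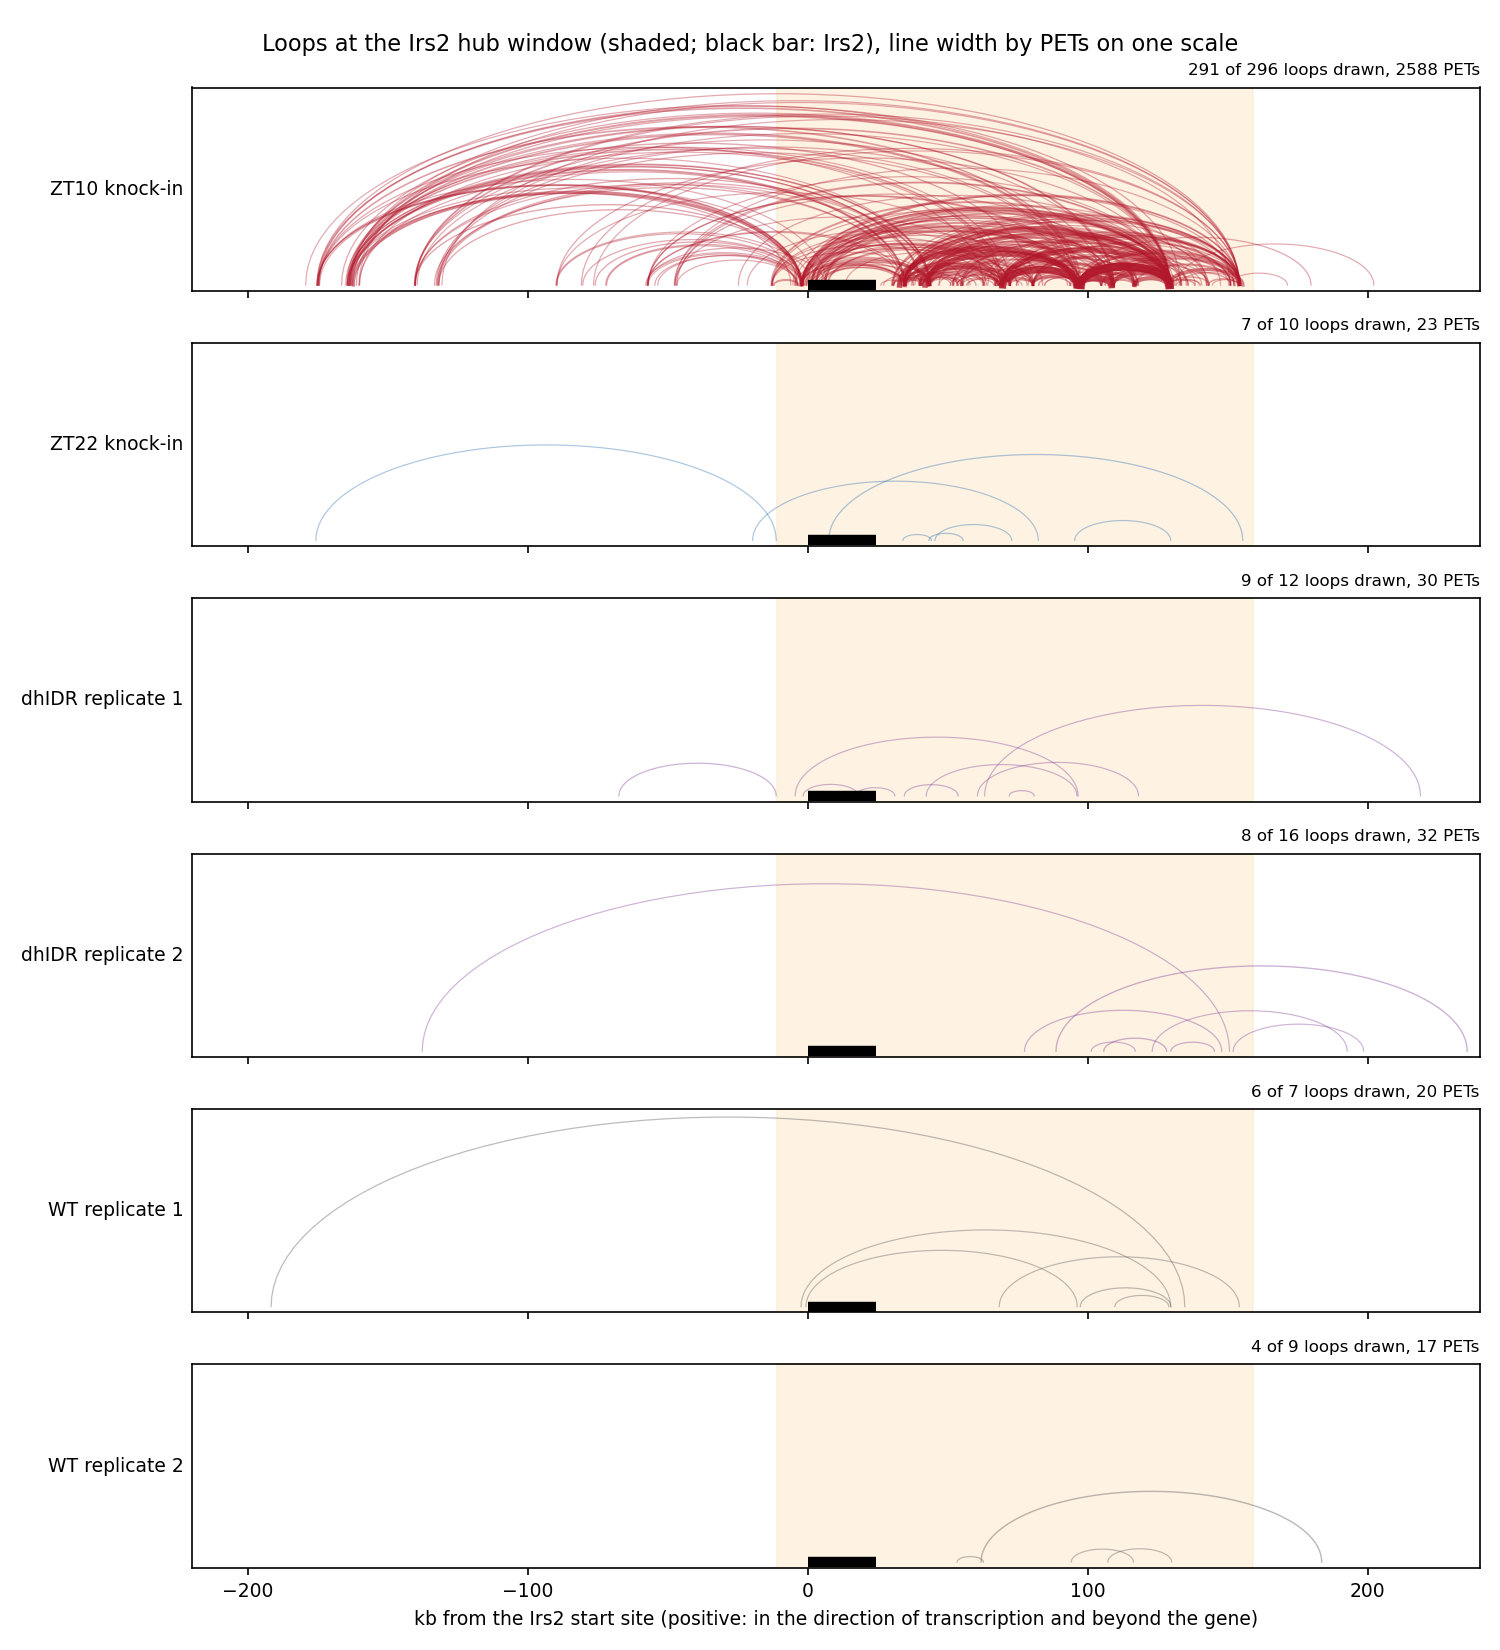
Loops with an anchor in the Irs2 hub window (shaded), 1 panel for each library, drawn as arcs over the distance in kb from the Irs2 start site, with line width set by PETs on 1 scale for all panels. Loops that reach outside the plotted range are not drawn but are counted in each panel's title. The ZT10 knock-in panel is filled with arcs on the downstream side of the gene (black bar), and the other 5 panels hold 4 to 9 arcs each.

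Irs2 (chr8:10984681-11008929, minus strand) lies at the upper end of the hub, and most of the hub lies beyond its 3′ end. No other protein-coding gene lies in the window. The nearest are Myo16, a myosin gene 349.9 kb below Irs2 with 22 PETs at ZT10, and Col4a1, a type IV collagen gene 189.5 kb above with 31. Loops that touched Irs2 or its 5-kb flanks took 528 of the 2604 ZT10 PETs (20.3%), and 2076 (79.7%) were in loops that did not touch that window. Both anchors lay inside the hub for 2151 PETs (82.6%). The count at Irs2 turned on its window, at 155 ZT10 PETs over the gene body alone and 1255 with 25 kb on either side. Most PETs of the hub were thus in loops that did not reach the gene.

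At the gene, contacts gathered around the start site. Of the 528 PETs, 403 (76.3%) had an anchor within 5 kb of the start site, and 86 were in loops with an anchor that touched the 300-bp promoter itself. This promoter, from RefSeq's GRCm38.p6 at chr8:11008880-11009179 on the minus strand, is shown because contacts gathered around it. Capitals mark matches, on either strand, to the E-box CACGTG, the motif of clock activators and other bHLH factors, and to CAAAACA, a core of insulin response sequences, which in this promoter is read on the opposite strand.

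Irs2 promoter: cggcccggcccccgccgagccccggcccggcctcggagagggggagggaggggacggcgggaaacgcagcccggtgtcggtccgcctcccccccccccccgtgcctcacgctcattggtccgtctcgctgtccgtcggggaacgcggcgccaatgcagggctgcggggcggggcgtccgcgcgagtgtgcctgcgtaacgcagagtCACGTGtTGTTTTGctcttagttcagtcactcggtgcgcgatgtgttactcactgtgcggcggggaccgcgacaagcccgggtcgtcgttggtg

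The match to CACGTG began 44 bases and that to CAAAACA 37 bases before the start site, with 1 base between them. The sequence is 72.0% G and C with 41 CpG, against a median of 52.7% and 7 over 32851 promoters. Among those promoters 7.15% held CACGTG and 6.28% held CAAAACA. Neither REV-ERB motif searched, AGGTCA (16.3% of promoters) or the longer ROR response element (0.606%), was found in these letters on either strand. Nor were the D-box TTATGNAA (3.38%) and the forkhead motif GTAAACA (3.65%).

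Anchors of the hub fell on a few places that were joined to each other. When ZT10 anchors were grouped by 4 kb, 44 places resulted, 12 of them with at least 100 PETs. Of these 12, 11 lay outside genes and 1 at the Irs2 start. The strongest, 129.2 and 97.5 kb downstream of the start site, had 757 PETs each. Places at 69.7, 41.9 and 32.8 kb had 468, 410 and 407, the Irs2 start 340, and a place 162.3 kb upstream, 27.2 kb from Col4a1, had 143. That upstream place lies outside the hub window. Of the 66 possible pairs among the 12, 59 were joined by a ZT10 loop, and these loops held 1794 PETs (68.9% of the hub's). The 12 were chosen by their PETs in these same loops, so dense joining among them follows in part from the choice.

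The strongest loop joined chr8:10876900-10882541 with chr8:10908764-10914147 by 127 PETs, and 32 of the 57865 ZT10 loops had more. It connects both leading places with each other and not with the gene. The place at 97.5 kb was joined to that at 69.7 kb by 105 PETs, to that at 108.5 kb by 95 and to that at 32.8 kb by 78. The Irs2 start was joined to the place at 129.2 kb by 47 PETs, to the upstream place at 162.3 kb by 42, to that at 97.5 kb by 38 and to that at 32.8 kb by 27. The start thus had fewer PETs with any 1 place than the strongest intergenic places had with each other, and its contacts ran to both sides of the gene.

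**Figure D2:**
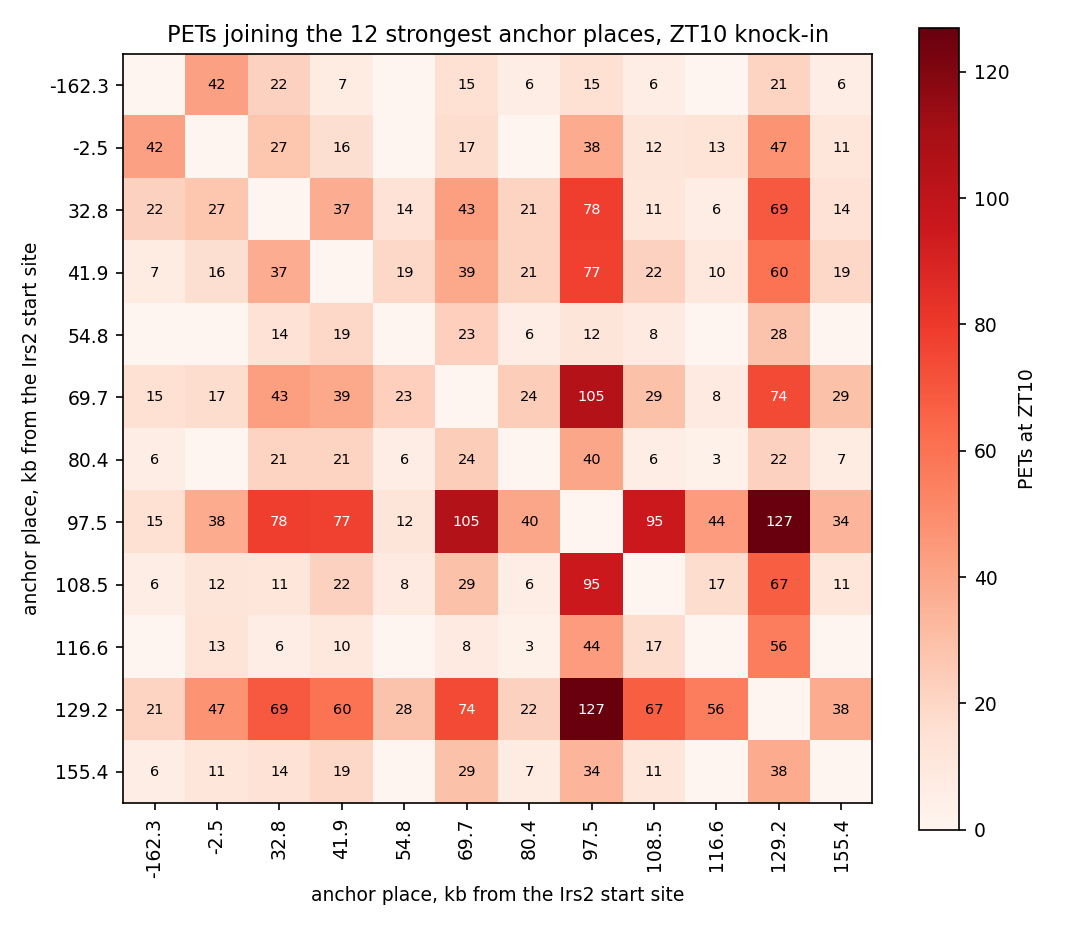
PETs at ZT10 between the 12 anchor places with at least 100 PETs in loops of the Irs2 hub. Each axis gives the place's distance in kb from the Irs2 start site (negative is upstream), and the colour and the printed number give PETs. An empty square means that no loop was listed. The squares of the places at 97.5 and 129.2 kb are the darkest, and the Irs2 start at -2.5 kb has at most 47.

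The same places reappeared in part in the other libraries, with few PETs. Loops between 2 of the 12 places numbered 3 with 10 PETs at ZT22, 4 with 14 and 0 in dhIDR, and 5 with 16 and 1 with 3 in WT. The contact of the 129-kb with the 97-kb place was listed with 3 PETs at ZT22 and with 4 in WT replicate 1. WT replicate 1 also joined the Irs2 start region to each of these places by 3 PETs, and dhIDR replicate 1 joined a point at -4.48 kb from the start to the 97-kb place by 3. Of hub loops, 3 of 10 at ZT22, 3 of 12 and 1 of 16 in dhIDR, and 5 of 7 and 2 of 9 in WT overlapped a ZT10 loop at both anchors. Over all loops that share was 1.29% at ZT22, 0.720% and 0.348% in dhIDR, and 0.525% and 0.365% in WT. The hub offers 296 ZT10 loops to overlap with, and the part of that density in these shares was not tested.

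Irs1, which encodes the second main adaptor (chr1:82233105-82291439, minus strand), had 395 PETs at ZT10, 18 at ZT22, 22 and 6 in dhIDR, and 12 and 37 in WT. The ZT10 library was the highest, and the dhIDR and WT libraries overlapped. Its contacts centred on the far end of the gene. A place 55.3 kb downstream of the start site, inside the gene near its 3′ end, was in 253 ZT10 PETs (65.4% of those in grouped anchors). The strongest loop joined it, at chr1:82232164-82240103, to chr1:82182153-82190090, beyond the gene, by 92 PETs, and 79 loops of the library had more. The start site was in 124 PETs (31.4%), and 133 PETs had both anchors in the gene. Like Irs2, Irs1 was thus joined to places downstream of its 3′ end, but with fewer PETs at its start.

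The Irs1 promoter, at chr1:82291390-82291689 on the minus strand, is shown for comparison with that of the other adaptor gene.

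Irs1 promoter: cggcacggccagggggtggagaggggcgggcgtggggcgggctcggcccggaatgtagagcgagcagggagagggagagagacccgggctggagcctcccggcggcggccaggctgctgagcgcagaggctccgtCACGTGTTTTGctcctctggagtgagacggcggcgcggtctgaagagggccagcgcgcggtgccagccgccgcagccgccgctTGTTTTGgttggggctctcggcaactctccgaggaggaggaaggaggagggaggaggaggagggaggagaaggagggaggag

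It held both motifs too, with CACGTG 115 bases before the start and CAAAACA at 111, overlapping it by 2 bases, and again CAAAACA at 32. It was 71.3% G and C with 28 CpG, and 74 ZT10 PETs had an anchor on it. The other 4 motifs were not found.

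Insr, the insulin receptor gene (chr8:3150922-3279649), had 143 PETs at ZT10, 9 at ZT22, 40 and 7 in dhIDR, and 6 and 24 in WT. It was the least densely looped of the 6 genes, with 1.03 ZT10 PETs per kb of its window. Most of its loops stayed inside the gene, with both anchors in the window for 133 of 143 PETs and 29 of 32 loops. The high-coordinate end was in 66 PETs and the low-coordinate end in 0. No loop was strong: the highest had 12 PETs, a count that 6.25% of ZT10 loops exceeded. The place with the most PETs inside the gene, 23.1 kb from the high-coordinate end, had 49. In dhIDR replicate 1, 16 of the gene's 40 PETs were in loops over 2 Mb long.

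Foxo1, the transcription factor gene (chr3:52268337-52350109, plus strand), had 309 PETs at ZT10, 29 at ZT22, 20 and 9 in dhIDR, and 11 and 22 in WT. Its loops were long. The median span was 225 kb at ZT10, against 40.1 kb over all loops, and 65.4% of its PETs spanned 200 to 500 kb, against 4.26% of all. A place 23.0 kb inside the gene was in 235 of the 309 PETs (76.1%), and the start site in 90 (29.1%). The inner place was joined by 44 PETs to a place 333 kb downstream of the start, by 37 to one at 350 kb, by 27 to one at 261 kb and by 39 to the start. The nearest gene on that side, Cog6, begins 632 kb beyond Foxo1, so these far anchors lie outside protein-coding genes. The 300-bp promoter had 6 PETs and none of the 6 motifs.

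Igfbp1 (chr11:7197787-7202546, plus strand) had 249 PETs at ZT10 and 3 in dhIDR replicate 1, and 10 in WT replicate 2, and no loop in the other 3 libraries. Of the 249 PETs, 246 touched the 5 kb on either side of the start site. That zone covers the whole gene, so a high share follows from the windows. Loops of 68 and 61 PETs joined a place 2.26 kb upstream of the start to places 61.9 and 48.9 kb upstream. These lie inside Adcy1, an adenylate cyclase gene that ends 19.3 kb away. Adcy1 shared 17 loops and 201 PETs with Igfbp1 out of 292 PETs of its own. The other neighbour, Igfbp3, a further binding protein gene 3.54 kb away, shared 25 of its 28. A place between the genes, in the flanks of both, had 12 PETs, and a place inside Igfbp3 had 13. Per kb of window Igfbp1 had 16.9 PETs at ZT10, rank 26 of 21887 genes, and Irs2 had 15.4, rank 34. These were the highest of the 6, followed by Irs1 at 5.78, Igfbp2 at 3.84, Foxo1 at 3.37 and Insr at 1.03.

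The Igfbp1 promoter, at chr11:7197537-7197836 on the plus strand, is shown because 157 of the 249 PETs had an anchor on it, the most of the 5 genes whose promoter was at hand.

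Igfbp1 promoter: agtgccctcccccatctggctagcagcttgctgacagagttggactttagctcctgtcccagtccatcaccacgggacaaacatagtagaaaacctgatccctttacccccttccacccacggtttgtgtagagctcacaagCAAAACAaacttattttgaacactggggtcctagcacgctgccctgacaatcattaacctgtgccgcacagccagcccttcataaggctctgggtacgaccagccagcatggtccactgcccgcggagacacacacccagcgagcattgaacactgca

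CAAAACA began 108 bases before the start. The sequence through which insulin represses human IGFBP1 has this core. No other motif was found, and with 54.3% G and C and 8 CpG this promoter lay near the median of all promoters.

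Igfbp2 (chr1:72824480-72852474, plus strand) had 146 PETs at ZT10, 9 at ZT22, 3 and 0 in dhIDR, and 0 and 16 in WT. The start site was in 74 ZT10 PETs (50.7%) and was joined by 30 to a place 14.1 kb upstream and by 14 to one 51.1 kb upstream. Both upstream places were also joined to one 17.8 kb inside the gene, by 17 and 14 PETs. Its neighbour Igfbp5, 5.59 kb away, shared 6 loops with 23 PETs, through a place 29.8 kb from the Igfbp2 start that lies in the flanks of both genes. Of the 16 PETs in WT replicate 2, 10 came from 1 loop of 62469 kb to Lmod1, whose near anchor lies between Igfbp2 and Igfbp5. The promoter at the gene's start held CACGTG 142 bases before the start and had 59 PETs at ZT10. A second promoter of the gene, at chr1:72825137-72825436, held none of the motifs searched and had 58 PETs at ZT10.

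**Figure D3:**
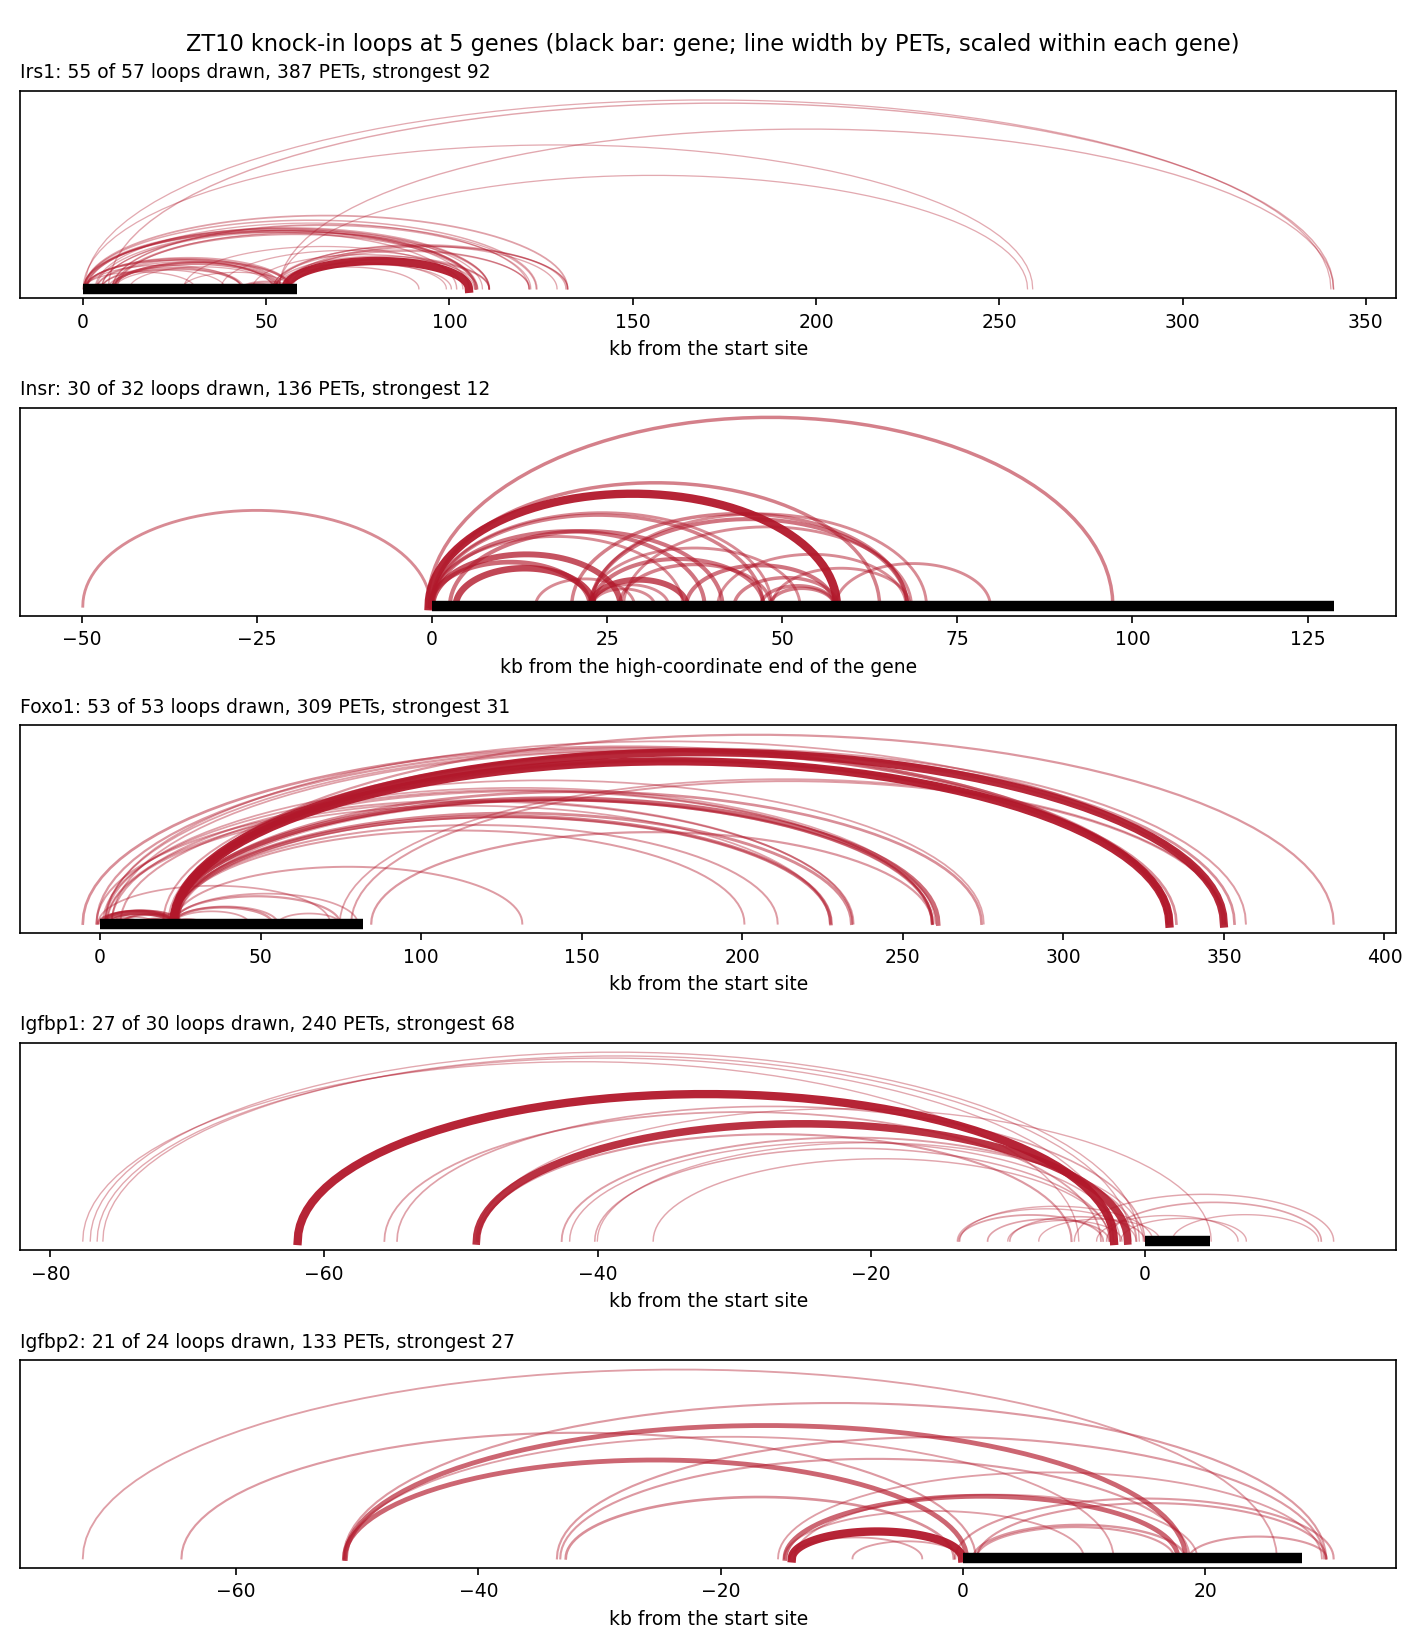
ZT10 knock-in loops of Irs1, Insr, Foxo1, Igfbp1 and Igfbp2, drawn as arcs over the distance in kb from the start site (for Insr, from the high-coordinate end), with the gene as a black bar and line width set by PETs within each gene. Irs1 loops reach past its 3′ end, most Insr loops stay inside the gene, Foxo1 loops reach up to 384 kb downstream, and Igfbp1 and Igfbp2 loops reach upstream.

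Few contacts reached other genes. The windows of Igfbp3 and Igfbp5 overlap those of Igfbp1 and Igfbp2, so loops shared with them need not reach them. Leaving these and Adcy1 aside, far anchors of ZT10 loops lay at Tns3 for Igfbp1 (3 PETs) and at Pnkd (6) and Tmem131 (3) for Igfbp2. For Insr they lay at Fut10 (4), and 1 loop of 3 PETs went to an anchor shared by Cenpt and Tsnaxip1. Irs2 reached Myo16 by 2 loops with 7 PETs, the hub reached Myo16 by 4 loops with 13, these included, and 1 loop of 3 PETs went from the hub to an anchor shared by Arglu1 and Efnb2. Irs1 and Foxo1 reached no other gene. The remaining nearest neighbours were sparsely looped at ZT10, with 6 PETs at Nyap2 and 15 at Rhbdd1 beside Irs1, 17 at Arhgef18 above Insr, 19 at Rpl37a below Igfbp2, and 61 at Maml3 and 6 at Cog6 on either side of Foxo1.

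The hub and all 6 genes held a larger part of the listed PETs at ZT10 than at ZT22. The log2 ratio of shares, ZT10 over ZT22, was 5.03 at the hub (95% Clopper-Pearson interval 4.54 to 5.57), 5.77 at Irs2 (4.41 to 7.65), 3.18 at Irs1 (2.50 to 3.95), 2.75 at Igfbp2 (1.78 to 3.91), 2.72 at Insr (1.75 to 3.88) and 2.14 at Foxo1 (1.59 to 2.74). Igfbp1 was unlisted at ZT22 and has no ratio. With 1 library at each time there is no test, and the intervals cover counting error only, with PETs taken as independent. At least 4-fold higher were all 6 genes, as were 39.5% of the 3721 genes that reached 30 PETs in the knock-in libraries together, and since the genes were picked on this contrast nothing is read from their count. With 25-kb flanks Insr (log2 ratio 1.85) and Foxo1 (1.78) were under 4-fold, with loops of at most 2 Mb Foxo1 (1.69) and Igfbp2 (1.97), and with wide anchors Insr (1.22), all with a pseudocount of 0.5 PETs. Relative to the median gene (1.40) with a pseudocount of 0.5 PETs, Igfbp1 was at 6.29, Irs2 at 4.21, the hub at 3.61, Irs1 at 1.75, Igfbp2 at 1.28, Insr at 1.25 and Foxo1 at 0.72. By that measure 2 of the 6 genes, Irs2 and Igfbp1, were at least 4-fold up, as were 20.2% of genes.

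The wide anchors that set the ZT10 knock-in library apart were also found at these genes. When loops with an anchor under 700 bp were left out, the hub kept 2493 of 2604 PETs at ZT10 and 14 of 33 at ZT22. Foxo1 kept 289 of 309 at ZT10 and 0 of 29 at ZT22, and Irs1 369 of 395 at ZT10 and 3 of 18 at ZT22. With the pseudocount, the log2 ratio among wide-anchor loops was lower at the hub (3.39, against 5.01 over all loops), at Irs2 (2.76 against 5.60) and at Insr (1.22 against 2.65), and higher at Foxo1 (5.14 against 2.12) and at Igfbp2 (3.96 against 2.68). The part of anchor width in the contrast was not tested.

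The AAV libraries, also of ZT10, had far lower counts at the hub than the knock-in library. Shares per 10,000 listed PETs at the hub were 81.3 in the ZT10 knock-in, 2.24 and 4.05 in dhIDR, and 2.21 and 1.62 in WT. The hub's level in all 4 AAV libraries was thus near that of the ZT22 knock-in, at 2.49, although they were collected at ZT10. Knock-in and AAV mice differ in genotype (floxed alleles of both REV-ERB genes with Cre in the AAV mice, which the titles call DKO), in the AAV injection and in the tagged protein's promoter, and the libraries differ in loop span and anchor width. These cannot be told apart here.

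**Figure D4:**
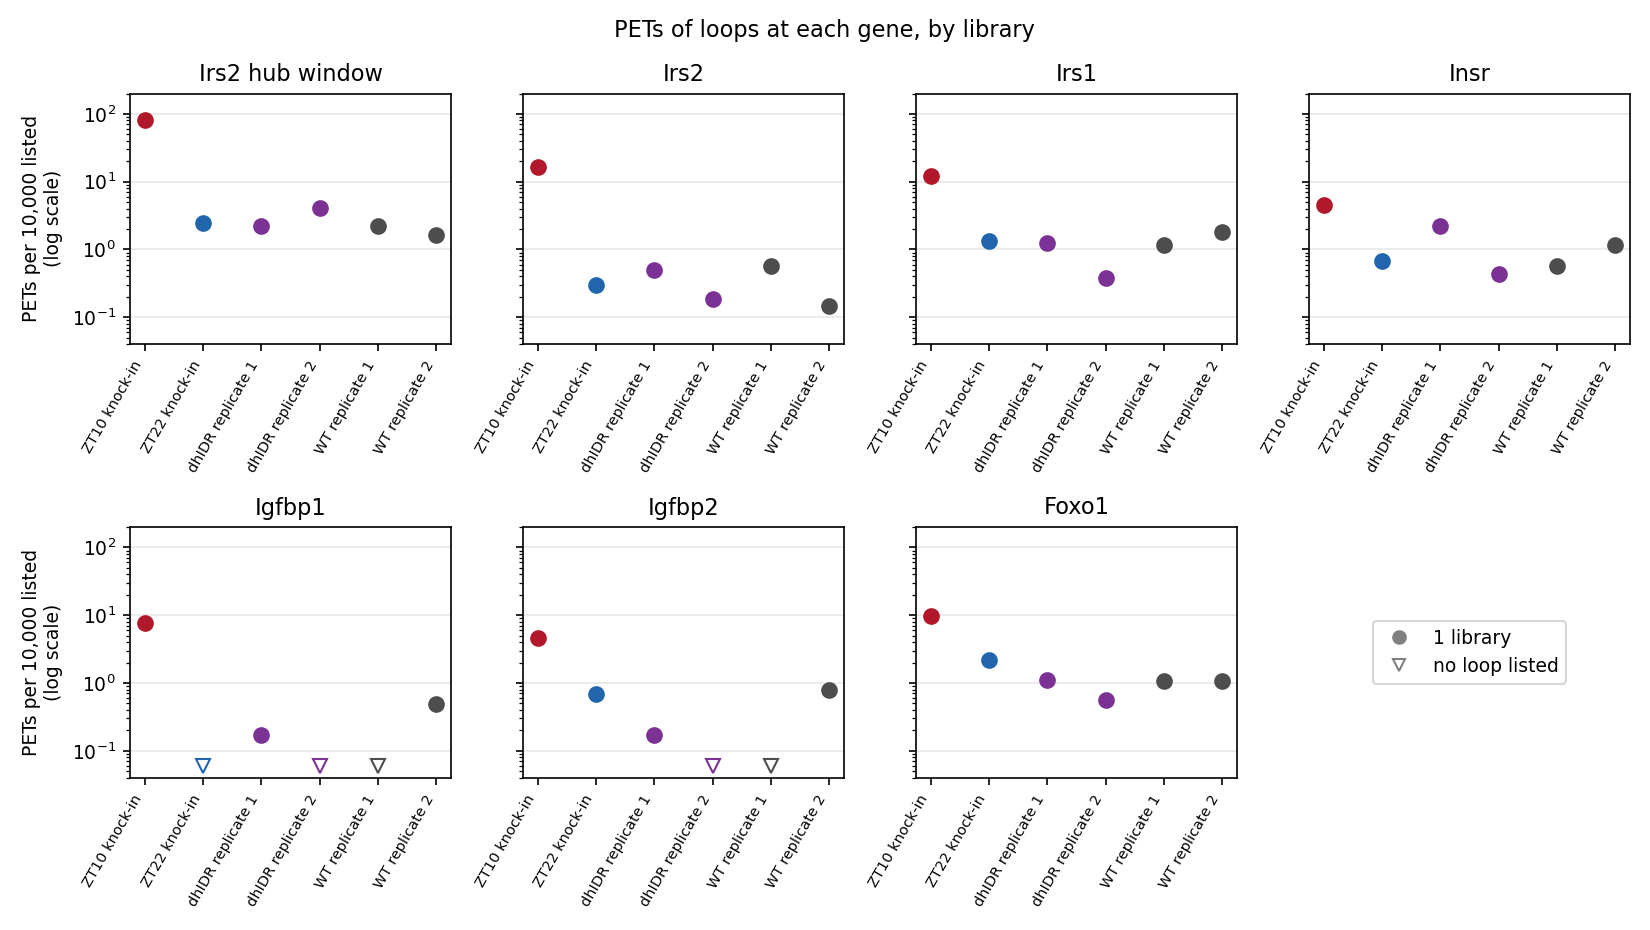
PETs per 10,000 listed PETs (log scale) for the Irs2 hub window and the 6 genes, with 1 point for each library and an open triangle where no loop was listed. The ZT10 knock-in point is the highest in all 7 panels, at 81.3 for the hub window, and the dhIDR and WT points overlap in every panel but that of the hub window.

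The construct comparison asked what changes when REV-ERBα lacks the stretch that the label calls hIDR. No change was detected at these genes. At the hub the dhIDR libraries, at 2.24 and 4.05 per 10,000, lay above the WT libraries, at 2.21 and 1.62, by a margin that is small for dhIDR replicate 1. Both dhIDR libraries above both WT libraries was also the case for 14.5% of 18946 genes, and both below for 12%. At each of the 6 genes the groups overlapped. By edgeR's quasi-likelihood test the log2 difference, dhIDR minus WT, at the hub was 0.72 (SE 0.47, adjusted p = 1.00), and without dhIDR replicate 2 it was 0.23. It was -0.92 at Irs1 (SE 0.72), 0.54 at Insr (SE 0.82) and -0.36 at Foxo1 (SE 0.71), each with an adjusted p of 1.00. The sign at Insr rested on dhIDR replicate 1, without which it was -1.06, and that at Foxo1 on dhIDR replicate 2, without which it was 0.04.

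Irs2, Igfbp1 and Igfbp2 had too few PETs for that fit. Without the filter on low counts, edgeR gave log2 differences of 0.04 at Irs2 (SE 1.63), -1.59 at Igfbp1 (SE 2.65) and -2.25 at Igfbp2 (SE 2.06), with an adjusted p of 0.998. The test called 1 of 4608 genes (0.0217%), Sfi1, and 0.0158% of 18946 without the filter. Of these genes and the hub it called 0 of the 4 tested, with 0 under 0.05 before adjustment. DESeq2, run on all 7, called 0. On counts simulated with the depth and dispersion of these libraries, the edgeR step recovered 0 of 135 changes of 4-fold among 4413 genes. It recovered 56.8% of 190 changes of 8-fold among 4520. The changed genes were drawn at random, so 4-fold changes were in general not detectable, and power at each of these genes was not simulated.

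The insulin pathway as a whole was looped unevenly at ZT10. Of 41 genes from the receptor to mTOR and FOXO, 18 reached 30 PETs in the knock-in libraries together, 8 of them at least 4-fold higher at ZT10 (39.5% of all such genes) and 3 at least 4-fold lower (16.1% of all). Their median log2 ratio was 1.80, against 1.40 over all genes. The 8 higher genes all had under 30 PETs at ZT22, so they passed that filter only through their ZT10 PETs. Likewise, the 3 lower genes had under 30 at ZT10. Irs2, Irs1, Insr and Foxo1 are among the 8 and were picked on this contrast, so these counts are a description. At least 100 PETs at ZT10 were found, beside Irs2, Irs1, Foxo1 and Insr, at Pik3r1, which encodes the regulatory subunit of PI3-kinase (297 PETs at ZT10, 27 at ZT22), Foxo3, a second FOXO factor gene (259 at ZT10, 10 at ZT22), and Grb10, an adaptor that inhibits the receptor (124 at ZT10, 22 at ZT22). The 3 lower genes were Igf1r, the IGF1 receptor gene (19 PETs at ZT10, 38 at ZT22), Rptor, a subunit gene of mTORC1 (12 at ZT10, 31 at ZT22), and Gab1, an adaptor gene (13 at ZT10, 25 at ZT22). The kinase genes Akt1 and Akt2 had 12 and 19 PETs at ZT10. Rps6kb1, Tsc2, Sh2b1 and Sh2b2 had 0 at ZT10.

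Of 16 genes listed here as FOXO1 targets, 13 reached 30 PETs in the knock-in libraries together. Of these 13, 12 were at least 4-fold higher at ZT10 (39.5% of all such genes). The median log2 ratio of the 13 was 4.70, against 1.40 over all genes. All 12 higher genes had under 30 PETs at ZT22, so each passed that filter only through its ZT10 PETs, and these counts are a description. For Bcl6, G6pc, Trib1, Angptl4 and Igfbp1, ZT22 listed none. Beside Irs2, Igfbp1 and Insr, at least 100 PETs at ZT10 were found at the repressor gene Bcl6 (310), Pdk4, which restrains pyruvate dehydrogenase (219), the apolipoprotein gene Apoc3 (197), Txnip, which limits glucose uptake (147), the coactivator gene Ppargc1a (122), the glucose-6-phosphatase gene G6pc (121) and the pseudokinase gene Trib1 (109). At ZT22 Bcl6, G6pc and Trib1 were unlisted, Pdk4 and Txnip had 3 PETs and Apoc3 6. Ppargc1a was not higher, with 62 PETs at ZT22 and a log2 ratio of -0.30 (-0.75 to 0.17). The 3 targets with under 30 PETs all had fewer at ZT10. Mttp, which loads lipid onto lipoproteins, had 7 PETs at ZT10 and 15 at ZT22 (log2 ratio -2.37, -3.91 to -0.99). Fbxo32, a ubiquitin ligase gene, had 3 at ZT10 and 12 at ZT22 (-3.27, -5.74 to -1.38), and Sesn3, a sestrin gene, 0 at ZT10 and 7 at ZT22. Among IGF and IGF-binding protein genes, 6 of the 7 with 30 PETs were at least 4-fold higher at ZT10 (39.5% of all such genes). Igf1 had 212 PETs at ZT10, and Igfals, which encodes the subunit that stabilises circulating IGF complexes, had 117. These 6 also passed the filter only through their ZT10 PETs, and they include Igfbp1 and Igfbp2. Between dhIDR and WT, both dhIDR libraries lay above both WT libraries for 4 of the 16 FOXO1 targets and below for 0, for 3 and 4 of the 41 pathway genes, and for 0 and 3 of the 8 IGF genes with a PET there, against 14.5% above and 12% below over all genes. These lists were drawn up with results of these libraries known. Together they hold all 6 genes, and the FOXO1 target list alone holds Irs2, Insr and Igfbp1.

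**Figure D5:**
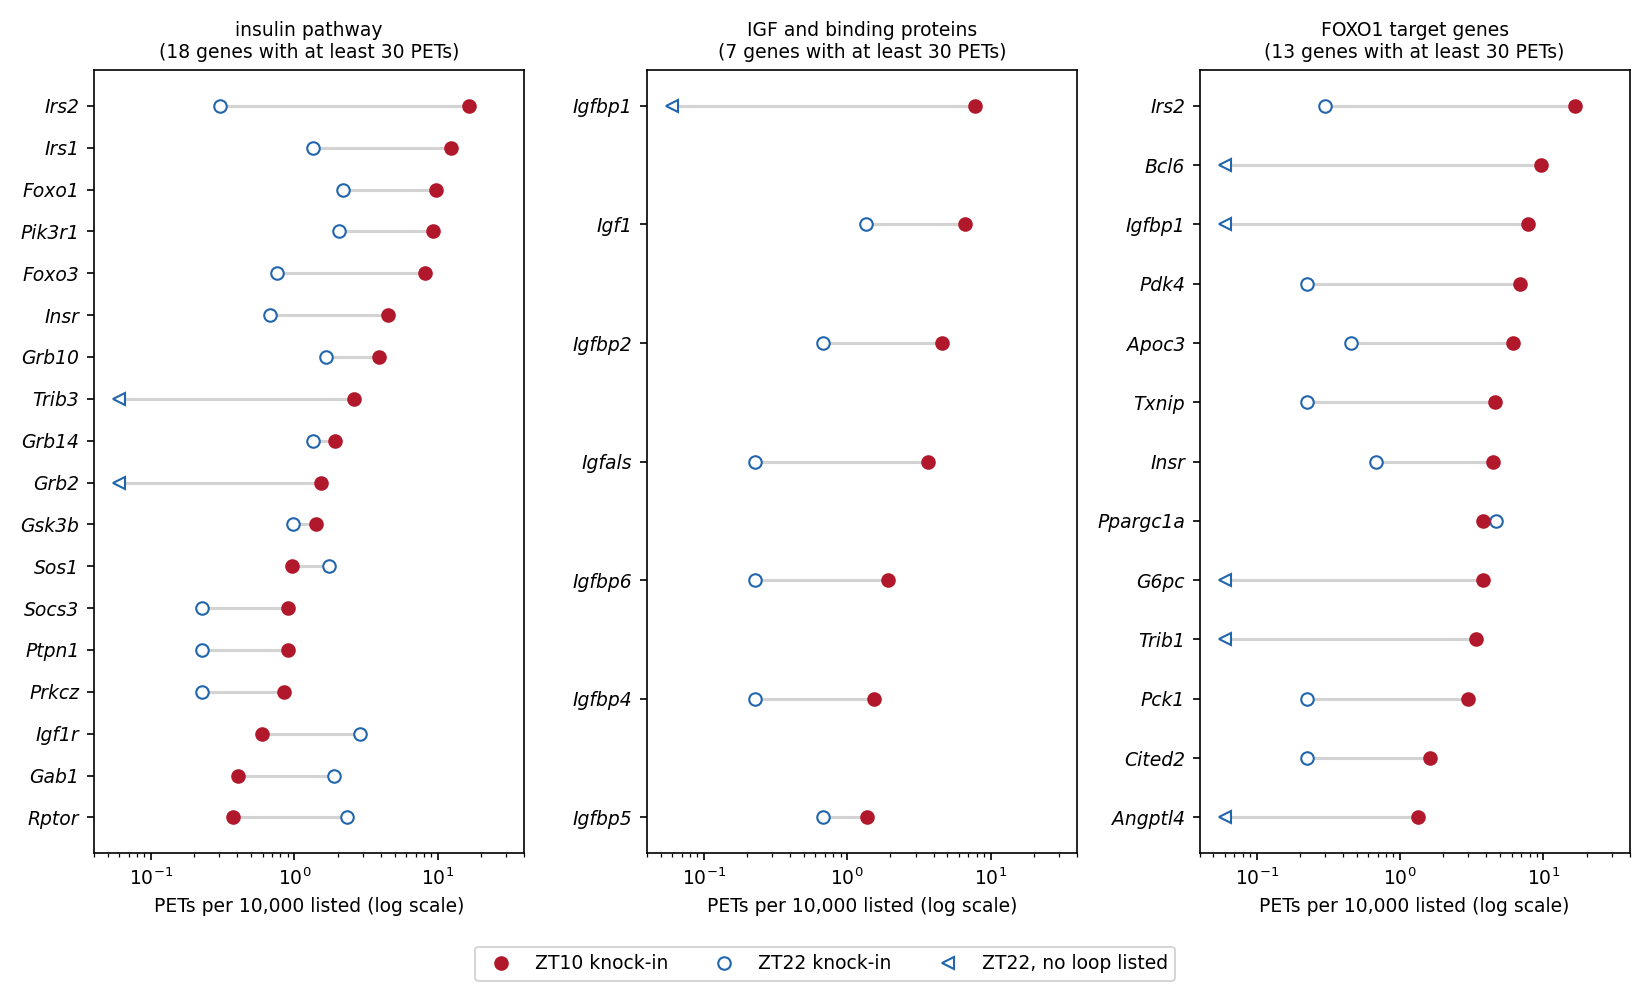
PETs per 10,000 listed PETs (log scale) at ZT10 (filled) and ZT22 (open) in the knock-in libraries, for genes that reached 30 PETs in both together, in the insulin pathway, IGF and FOXO1 target lists, with an open triangle where ZT22 lists no loop. Most filled points lie to the right, while Igf1r, Gab1, Rptor and Sos1 lie to the left of their ZT22 points, as does Ppargc1a.

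Genes with the most similar counts over the 6 libraries were sought among 2719 genes with at least 100 PETs, by Euclidean distance in log2 of PETs per 10,000. Irs1 and Foxo1 shared 2 of their 3 nearest genes, Pik3r1 (0.92 from Irs1, 0.85 from Foxo1) and Rai14 (1.19 and 0.85). The third was Prkag2, a subunit gene of the kinase AMPK, for Irs1 (0.90) and LOC108168726 for Foxo1 (0.86). Nearest to Irs2 were Sdc4 (1.33), Txnl4a (1.39) and Mpc1 (1.55), to Insr 3110009E18Rik (0.91), Ccdc38 (1.03) and Fgd6 (1.11), to Igfbp1 Ephx1 (0.85), Ces1f (0.90) and Gm33049 (1.35), and to Igfbp2 Gng7 (0.94), Zbtb39 (1.22) and Inpp5e (1.43). In the 5 libraries other than the ZT10 knock-in, each of these genes had at most 43 PETs.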

How the data were processed

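In-situ ChIA-PET with anti-HA beads was read from 6 libraries of mouse liver. Each deposited file lists, for 1 library and with no header, pairs of anchors with a whole-number count of PETs for each pair, which the authors neither normalized nor pooled. Positions are those of the files, on mm10 per the submitters' processing notes. Aligner, duplicate filter and loop caller: not given in the sources used here. Groups and replicate numbers came from the titles.

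Mitochondrial loops were left out. A loop counted for each of 21887 protein-coding RefSeq genes (GRCm38.p6) when an anchor touched the gene body plus 5 kb, so neighbouring genes share PETs. The knock-in libraries, 1 for each time, were compared by shares of listed PETs with exact Clopper-Pearson intervals at 95% and no test. The dhIDR and WT libraries were compared over all genes by the quasi-likelihood test of edgeR 4.0.16 in R 4.3.3 (TMM, filterByExpr, Benjamini-Hochberg at 0.05), with the hub as 1 more feature. DESeq2 1.42.0 was an alternative. Python 3.11.15 with pandas 2.3.3 and scipy 1.17.1 did the counting, which was checked on simulated data, as was the edgeR step.

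Loops overlapped when both anchors shared at least 1 bp. Hub anchors were grouped along the chromosome by 4 kb. Promoters, at hand for 5 of the 6 genes, are RefSeq's. Named were the 6 genes, their nearest neighbours, the genes at far anchors of their ZT10 loops, the 3 genes most like each, and list members with at least 100 PETs or with 0 at ZT10. Igf1r, Rptor, Gab1, Akt1, Akt2, Igf1, Igfals, Sos1, Mttp, Fbxo32, Angptl4 and Fgb were named after their values were seen. One gene of the insulin pathway list is not reported here. The members and lists were chosen with earlier results of these data known. Sums of listed PETs are not sequencing depth, which is unknown, and PETs of 1 loop may be copies of single ligation products. Alternatives covered the gene window, loop length, anchor width, scaling, the filter, the tool, each replicate and the replicate block.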

Additional observations from a re-analysis of the deposited data

How the results depend on the processing

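The share of listed ZT10 PETs at the hub moved from 0.813% to 0.165% with Irs2 and 5 kb alone, 0.704% with mitochondrial loops in the total, 0.852% with loops of at most 2 Mb, 0.930% with anchors of at least 700 bp and 1.01% with loops of at least 4 PETs. The ratio of shares, ZT10 over ZT22, stayed above 1 for the hub and all 6 genes under its 6 alternatives. For the hub, the gene body alone and the gene ends could not move this ratio, since its fixed window already holds Irs2 and its flanks. Insr, Foxo1, Igfbp2 and Irs1 did not stay 4-fold higher under each alternative, Irs1 only relative to the median gene (log2 ratio 1.75). The number of genes edgeR called between dhIDR and WT, 1, became 3 without the filter, 3 with 25-kb flanks and 0 with gene ends (333 genes tested, 22 at an unadjusted p under 0.05), loops of at most 2 Mb (2743 tested, 71 under 0.05) or wide anchors (6 tested, 0 under 0.05), where DESeq2 on the main counts called 1. It was 2 to 6 when 1 library was left out, and 1 with the replicate block. No setting called the hub or any of the 6 genes. The hub's log2 difference, dhIDR minus WT, was 0.68 with the replicate block and 0.23 to 1.09 with 1 library left out. With 1 library left out, Insr ranged from -1.06 (without dhIDR replicate 1) to 1.29 and Foxo1 from -0.94 to 0.041 (without dhIDR replicate 2), so both changed sign. Leaving 1 library in a group assumes that it varies like the other pair. Deviations of same-numbered libraries correlated at 0.00996 over 4609 features. With 2 pairs and few PETs, this value cannot show whether the replicate numbers mark a pairing. Wide anchors left none of these genes to test. The cause of these moves was not tested. Few PETs limit all values outside the ZT10 knock-in library, where most loops have 3 or 4.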
